A study of Homo sapiens with 6 samples.

Results

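The immediate early and AP-1 genes described here are FOS, FOSL1, FOSL2, JUN, JUNB, JUND, ATF3, EGR1, DUSP1 and IER5, chosen by their symbols out of 39020 genes listed in the 2 assays together. All 10 are listed in the RNA-seq tables and 8 in the iCLIP tables, which do not list EGR1 and DUSP1. Of the 8, 5 had enough counts for the test across genes (FOS, FOSL1, FOSL2, JUN and ATF3), and JUNB, JUND and IER5 did not.

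The cells were U2OS, a human osteosarcoma line. For iCLIP they were stably transfected with FLAG-tagged TIRR, the product of NUDT16L1 that binds the DNA break repair protein 53BP1, and 2 libraries came from untreated cells and 2 from cells that received 5 Gy from an X-ray source and recovered for 4 h. The iCLIP method crosslinks RNA to bound protein with ultraviolet light, isolates the FLAG-tagged protein with an antibody and sequences the attached RNA. For RNA-seq the cells were wild type, with 1 untreated and 1 irradiated library (the same dose and recovery per the labels, although the design text names gamma radiation). The assays therefore differ in the cells as well as the protocol, the labels do not say whether the replicates were separate cultures or the transfected line 1 clone, and empty-vector libraries were not analysed here.

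Immediate early genes are transcribed within minutes of a growth factor, stress or DNA damage signal, without new protein synthesis, and their short-lived mRNAs disappear again quickly. AP-1 is a dimer of bZIP transcription factors: FOS proteins (FOS, FOSL1, FOSL2) must pair with a JUN protein (JUN, JUNB, JUND), whereas JUN proteins also pair with each other and with ATF factors such as ATF3. MAP kinases drive the system, partly through serum response factor at FOS and EGR1, and DUSP1 is a phosphatase that switches those kinases off.

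The iCLIP libraries held 400723 to 799709 counts on genes, with irradiated library 1 the shallowest, and the RNA-seq libraries 13015406 and 13023903. Levels below are counts per 1000000 gene counts (CPM) with exact Clopper-Pearson 95% intervals, which cover counting error only. Well-known p53 targets differed in both assays. CDKN1A, which encodes the p53-induced cell cycle inhibitor p21, was 3.43-fold higher in the irradiated RNA-seq library and rose 7.63-fold in iCLIP, and MDM2, which encodes the ligase that restrains p53, was 3.59-fold higher and rose 5.15-fold (edgeR adjusted p = 9.6e-08 for both). In RNA-seq 10 of 14 osteoblast and mesenchymal markers had at least 100 untreated counts, while SP7 and IBSP, which mark bone-forming cells, are not listed. Of 6 epithelial markers 2 reached 100 counts, and none of 5 leukocyte or 4 endothelial markers did.

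In RNA-seq the members split: FOS and EGR1 were lower after the dose, ATF3 and DUSP1 were higher, and the other 6 differed by less than 1.5-fold. These 4 passed a rule of size (at least 100 counts, at least 2-fold, counting interval wholly beyond 1.5-fold), which 1.49% of 12977 genes passed, 0.863% as higher and 0.624% as lower. With 1 library per condition there is no replicate check and no test, and in bulk RNA fewer expressing cells and less RNA per cell cannot be told apart.

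FOS, the founding AP-1 subunit, had 280 counts without and 64 with irradiation, or 21.5 CPM (19.1 to 24.2) against 4.91 (3.78 to 6.28). This was a 4.42-fold lower level (95% counting interval 3.36 to 5.90), rank 4 from the lowest ratio of 12977 genes. EGR1, a zinc finger factor whose gene responds to the same growth signals, had 2344 and 647 counts, or 180.1 CPM (172.9 to 187.5) against 49.7 (45.9 to 53.7). It was 3.66-fold lower (3.36 to 4.003), rank 7 from the lowest. The FOS ratio rests on fewer counts, and the intervals of the 2 ratios overlap.

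ATF3, a bZIP factor of the ATF/CREB family induced by stress and by p53, had 108 counts without and 489 with irradiation, or 8.30 CPM (6.81 to 10.02) against 37.5 (34.3 to 41.03). The ratio was 4.48 (3.63 to 5.57), rank 3 from the highest of 12977 genes. DUSP1 had 121 and 246 counts, or 9.30 CPM (7.71 to 11.1) against 18.9 (16.6 to 21.4), a ratio of 2.01 (1.61 to 2.52) and rank 116. For all 4 of these members the counting intervals of the untreated and the irradiated library lay apart. The size rule that picked them from the same libraries all but requires this, so it adds no further evidence.

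**Figure D1:**
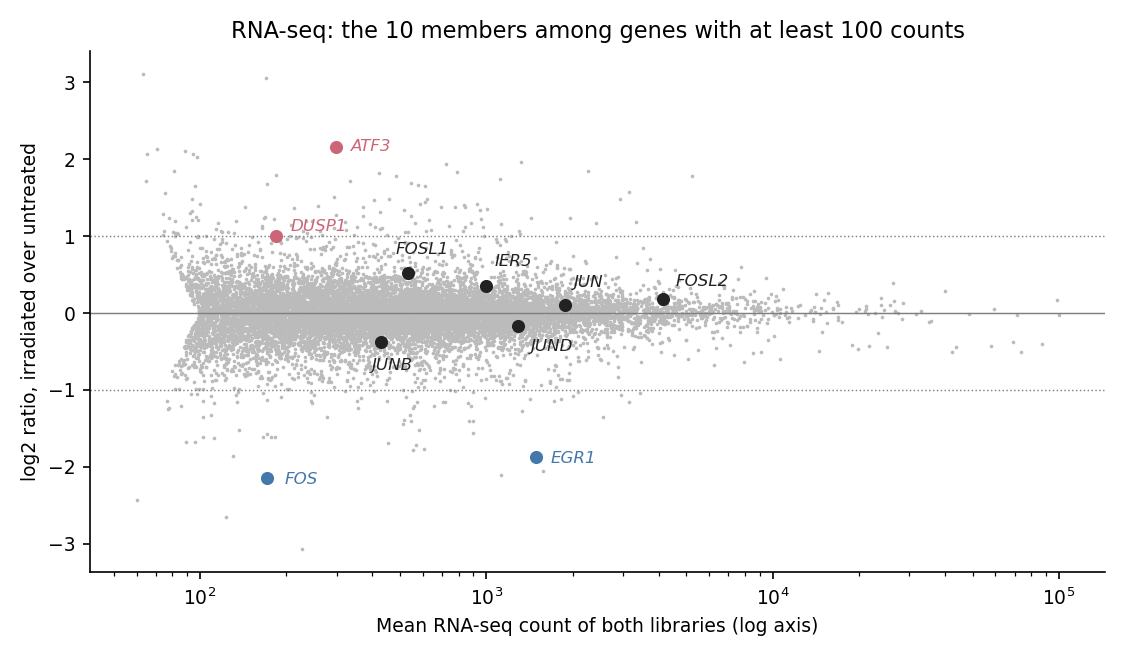
RNA-seq log2 ratio of irradiated over untreated against the mean count of both libraries (log axis) for the 12977 genes that reach 100 counts in one library or both (grey), with the 10 members marked. ATF3 and DUSP1 (red) lie above and FOS and EGR1 (blue) below the dotted 2-fold lines, and the other 6 members (black) lie inside them.

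The remaining AP-1 subunits and IER5 did not pass the size rule. FOSL1, which encodes FRA-1, had 433 and 630 counts, a ratio of 1.44 (1.27 to 1.63) and rank 496 from the highest of 12977 genes. FOSL2, which encodes FRA-2 and was the member with the most counts, had 3851 and 4426, a ratio of 1.14 (1.09 to 1.19). JUN, the main partner of FOS proteins, had 1810 and 1960, a ratio of 1.07 (1.004 to 1.14). These 3 were higher after the dose, and the other JUN genes were lower. JUNB had 481 and 373 counts, 1.30-fold lower (1.14 to 1.497), and JUND, the JUN gene whose mRNA is made most steadily, had 1360 and 1222, 1.13-fold lower (1.04 to 1.22). IER5, an immediate early gene that radiation and p53 induce and whose product acts with heat shock factor, had 873 and 1122 counts, a ratio of 1.27 (1.16 to 1.39). Counting intervals lay wholly above 1 for 6 members and below 1 for 4, where 20.4% and 22.0% of all 12977 genes did so. Added up without scaling for length, the counts of the 3 FOS genes were 350.7 CPM before and 393.1 after the dose, of which FOSL2 made 84.4% and 86.4%. Those of the 3 JUN genes were 280.5 and 272.96 CPM.

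The promoter windows of FOS, EGR1 and DUSP1 are shown because these members passed the size rule and have 1 RefSeq start each. Each is the 250 bases before the RefSeq start on assembly GRCh38.p14, 5′ to 3′ on the gene's strand, with capitals at matches to the CArG box (bound by serum response factor), the cyclic AMP element TGACGTCA or its core TGACG, the AP-1 site TGACTCA and TATAAA, on both strands.
FOS, chr14:75278578-75278827, plus strand: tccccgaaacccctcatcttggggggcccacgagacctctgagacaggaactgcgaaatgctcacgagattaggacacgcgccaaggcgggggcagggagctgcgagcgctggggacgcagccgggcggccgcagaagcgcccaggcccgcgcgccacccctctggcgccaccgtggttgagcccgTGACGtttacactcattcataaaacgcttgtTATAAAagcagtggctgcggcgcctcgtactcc
EGR1, chr5:138465229-138465478, plus strand: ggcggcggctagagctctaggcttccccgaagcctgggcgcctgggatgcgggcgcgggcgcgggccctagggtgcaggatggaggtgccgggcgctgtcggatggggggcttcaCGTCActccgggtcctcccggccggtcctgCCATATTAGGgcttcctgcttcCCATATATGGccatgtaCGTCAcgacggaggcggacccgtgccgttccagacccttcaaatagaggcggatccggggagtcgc
DUSP1, chr5:172771196-172771445, minus strand: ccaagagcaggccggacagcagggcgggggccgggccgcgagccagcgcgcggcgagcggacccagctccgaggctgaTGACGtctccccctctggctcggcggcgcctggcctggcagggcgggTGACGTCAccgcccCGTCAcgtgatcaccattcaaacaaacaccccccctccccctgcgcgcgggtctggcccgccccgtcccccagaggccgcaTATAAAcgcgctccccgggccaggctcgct

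EGR1 held 2 CArG boxes, CCATATTAGG from 105 and CCATATATGG from 83 bases before the start. A CArG box occurred in 1.16% of 35116 promoter windows and in no other member's window. FOS held TGACG from 64 and TATAAA from 33 bases before the start. Its window held no CArG box, but sequence more than 250 bases before the start was not searched for any member. DUSP1 held the full TGACGTCA from 125 bases before the start, which overlaps 2 matches to its core, and TATAAA from 30. Of the 9 members with an entry (FOSL1 has none), 7 held TGACG, 2 TGACGTCA (DUSP1 and JUND), 4 TATAAA, 6 the SP1 site GGGCGG and 0 TGACTCA, which were in 21.2%, 1.65%, 10.7%, 42.6% and 4.2% of all windows. A match is a string of letters and shows no binding, and ATF3 has 2 entries, of which 1 held TATAAA.

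The genes outside the group with the RNA-seq ratio nearest to that of a member, by the difference in log2 ratio over the 2 libraries, were taken as 3 each. For FOS they were the mitotic kinesin gene KIF20A (4.33-fold lower), the mitotic kinase gene PLK1 (4.15-fold lower) and TOX3 (5.38-fold lower). For EGR1 they were UBALD2 (3.43-fold lower), TNFAIP8L1 (3.41-fold lower) and the centrosome kinase gene NEK2 (3.29-fold lower). For ATF3 they were SLC52A1 (ratio 4.37), the stress cytokine gene GDF15 (4.31) and the ceramidase gene ACER2 (4.20). A ratio over 2 libraries says only that these genes moved by a like amount.

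In the TIRR iCLIP libraries FOSL2 and JUN gave the most counts of the group, while FOS, FOSL1 and ATF3 had 8 to 26 counts per library. FOSL2 had 267 and 266 counts before and 93 and 247 after the dose, or 341.4 and 332.6 against 232.1 and 371.6 CPM. JUN had 89 and 72 counts before and 32 and 70 after the dose, or 113.8 and 90.03 against 79.9 and 105.3 CPM. For both genes irradiated library 1 was the lowest of the 4 and the groups overlapped. For FOSL2 the irradiated libraries differed beyond counting error (intervals of 187.3 to 284.3 and 326.7 to 420.9), while the untreated ones did not (301.7 to 384.9 and 293.9 to 375.1).

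None of the 5 tested members was called by edgeR's quasi-likelihood test across 9230 genes, of which 3.50% were called (2.43% upward and 1.07% downward), and 1 member (ATF3) had an unadjusted p under 0.05, where 14.5% of all genes did. DESeq2 called 0 members as well, with no adjusted p for 3 of them. The log2 fold change was above 0 for 3 of the 5, as for 50.2% of all tested genes. Of all calls 224 were upward and 99 downward, or 184 and 132 when scaled by library totals. For FOSL2 edgeR gave -0.06 ± 0.17 on the log2 scale (estimate ± SE, adjusted p = 0.925), and for JUN it gave -0.04 ± 0.21 (adjusted p = 0.970). Both values changed sign with a library left out, FOSL2 to 0.20 without irradiated library 1, and JUN to 0.12 without untreated library 1 and 0.11 without irradiated library 1.

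FOS had 8 and 14 iCLIP counts before and 9 and 13 after the dose, or 10.2 and 17.5 against 22.5 and 19.6 CPM. FOSL1 had 14 and 20 counts before and 12 and 23 after, or 17.9 and 25.01 against 29.9 and 34.6 CPM. In both cases the irradiated libraries lay above the untreated ones, by less than the counting intervals of single libraries. On the log2 scale edgeR gave 0.63 ± 0.46 for FOS (adjusted p = 0.593) and 0.67 ± 0.36 for FOSL1 (adjusted p = 0.426), and neither passed.

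ATF3 had 13 and 15 iCLIP counts before and 10 and 26 after the dose, or 16.6 and 18.8 against 24.95 and 39.1 CPM. Its mean went from 17.7 ± 1.51 to 32.03 ± 10.01 CPM (SD, n = 2 each), or 0.98 ± 0.38 on the log2 scale (edgeR estimate ± SE, adjusted p = 0.220, and 0.103 to 0.769 over the alternatives that gave one). It was the tested member with the largest log2 fold change, and both irradiated libraries lay above the untreated ones. Of the 5 tested members, 3 showed that order (FOS, FOSL1 and ATF3), which 22.0% of all tested genes did. Without irradiated library 2 the log2 fold change of ATF3 was 0.57.

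IER5 had 4 and 4 counts before and 5 and 12 after the dose, or 5.12 and 5.002 against 12.5 and 18.1 CPM, with no overlap of the groups. The ratio of the summed counts (8 and 17) was 3.15 with an exact conditional 95% interval of 1.29 to 8.45. With no filter on low counts edgeR gave 1.65 ± 0.61 on the log2 scale (adjusted p = 0.273), so the gene was not called. JUNB had 2 and 5 counts before and 2 and 3 after the dose, a ratio of summed counts of 1.06 (0.265 to 3.88). JUND had 2 and 8 before and 4 and 3 after, a ratio of 1.04 (0.336 to 3.02). A difference within these intervals was not detectable at this depth.

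**Figure D2:**
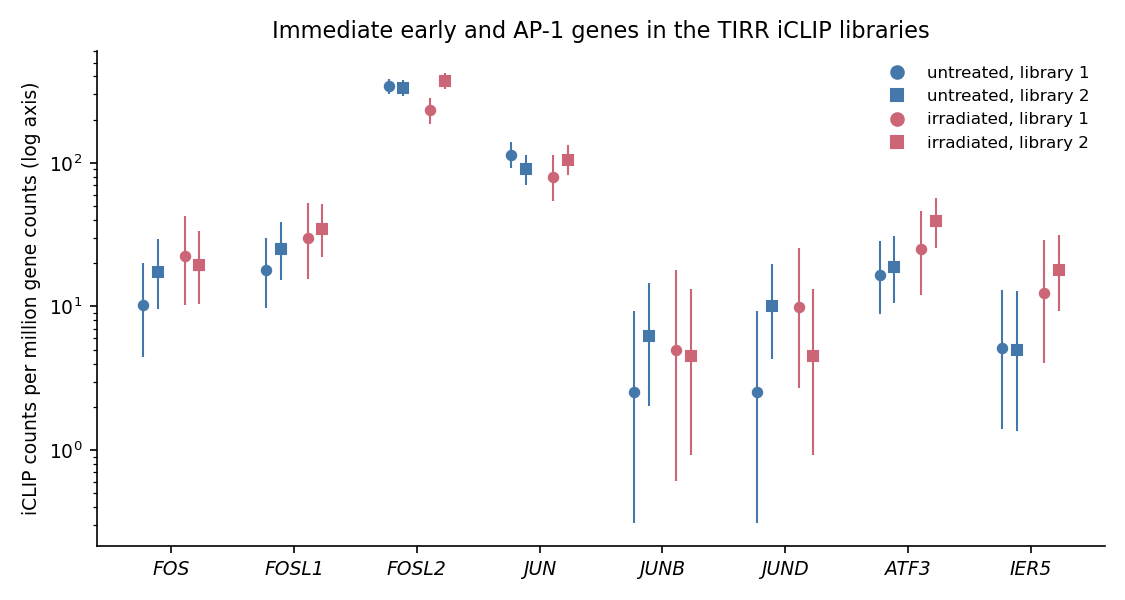
iCLIP CPM (log axis) of the 8 listed members in each library, blue for untreated and red for irradiated, with exact 95% counting intervals. FOSL2 lies between 232.1 and 371.6 CPM in the 4 libraries, JUN between 79.9 and 113.8, and JUNB at 2.56 to 6.25.

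Set side by side, the iCLIP and RNA-seq ratios lay on opposite sides of 1 for FOS, FOSL2, JUN, JUNB and JUND. For FOS the ratio of summed iCLIP counts (22 and 22 at fewer gene counts after the dose) was 1.48 with a 95% counting interval of 0.784 to 2.81. Its RNA-seq ratio was 0.226 (0.169 to 0.297), so the intervals do not overlap. For ATF3 the iCLIP ratio of 1.91 (1.13 to 3.25) lay below the RNA-seq ratio of 4.48 (3.63 to 5.57), again with no overlap. For FOSL2 the iCLIP ratio was 0.947 (0.824 to 1.09) and that in RNA-seq 1.14 (1.09 to 1.19), with intervals that meet at 1.09. The iCLIP ratios are scaled by gene count totals and the RNA-seq ratios by TMM, so these FOSL2 intervals cannot be said to lie apart. The 2 irradiated iCLIP libraries of FOSL2 also differed beyond counting error. For FOSL1, JUN, JUNB, JUND and IER5 the intervals of both assays overlapped. JUN had 0.940 in iCLIP and 1.07 in RNA-seq, JUNB 1.06 and 0.767, and JUND 1.04 and 0.889. The iCLIP intervals of FOS, FOSL2, JUN, JUNB and JUND all included 1, so their iCLIP directions are not settled. These intervals hold counting error only, no test of the difference between assays is possible with 1 RNA-seq library per condition, and the assays used different cells. Over genes the iCLIP replicates varied beyond counting error (chi-square per degree of freedom 1.42 untreated and 1.87 irradiated). The iCLIP intervals are therefore too narrow for the spread between libraries.

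**Figure D3:**
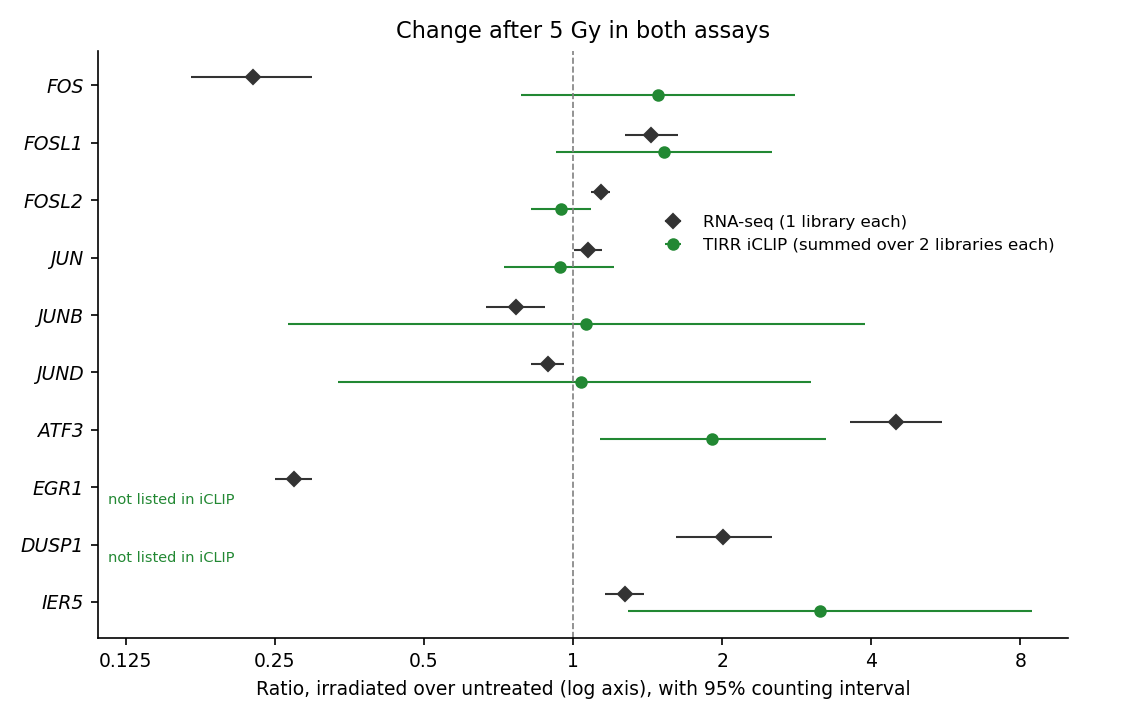
Ratio of irradiated over untreated (log axis) with 95% counting intervals, for RNA-seq (black diamonds, 1 library each) and for TIRR iCLIP (green circles, summed over 2 libraries each). FOS is at 0.226 in RNA-seq and 1.48 in iCLIP, ATF3 at 4.48 and 1.91, and EGR1 and DUSP1 have RNA-seq values only.

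A gene's share of the iCLIP counts divided by its share of the RNA-seq counts relates its recovery with TIRR to its RNA level, across assays that used different cells. In untreated cells this share ratio was 2.13 for ATF3, 1.14 for FOSL2, 0.733 for JUN, 0.645 for FOSL1 and 0.645 for FOS. It was 0.119 for JUNB, 0.0754 for IER5 and 0.0601 for JUND, and the median was 0.841 over the 11385 iCLIP-listed genes that reach 50 untreated RNA-seq counts. The 2 untreated iCLIP libraries were close for FOSL2 (1.15 and 1.12) and IER5 (0.0763 and 0.0746) and farther apart for JUNB (0.0692 and 0.169) and JUND (0.0245 and 0.0957).

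Over all genes the share ratio in untreated cells followed the deposited gene length, which includes introns. Its median was 0.107 for 1237 genes under 5 kb, 0.330 for 2721 genes of 5 to 20 kb, 0.944 for 4805 genes of 20 to 100 kb and 3.34 for 2622 longer genes. JUNB (1.83 kb), JUND (1.93 kb) and IER5 (4.20 kb), genes without introns, lay at percentiles 52.6, 35.7 and 40.6 of the shortest class. FOS (3.41 kb) lay at percentile 86.6 of the same class with 22 summed counts. FOSL1 and JUN lay at percentiles 68.1 and 71.6 of the 5 to 20 kb class, and FOSL2 and ATF3 at 56.6 and 77.1 of the 20 to 100 kb class. Within its length class no member lay in the lowest or the highest 10% in untreated cells, and irradiated libraries were not ranked by length. The class of JUN rests on its deposited length of 7204 bases. Its RefSeq span of 3257 bases would place it in the shortest class, where its 0.733 exceeds the 0.645 of FOS. Its percentile there was not computed.

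After the dose the share ratio of FOS was 4.57 and 3.98 in the 2 iCLIP libraries, against 0.476 and 0.814 before. That of ATF3 was 0.665 and 1.04, against 2.003 and 2.26. These are the members whose RNA-seq share moved most, in opposite directions, and both denominators are single libraries. IER5 had 0.145 and 0.210, above 0.0763 and 0.0746, and FOSL2 had 0.683 and 1.09, below 1.15 and 1.12. For FOSL1, JUN, JUNB and JUND the libraries of both conditions overlapped. Both iCLIP libraries of a condition are divided by the same RNA-seq library, so a shift in that library moves both values together. The share of all genes whose values separate in this way was not computed, so the separation cannot be called particular to these members.

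**Figure D4:**
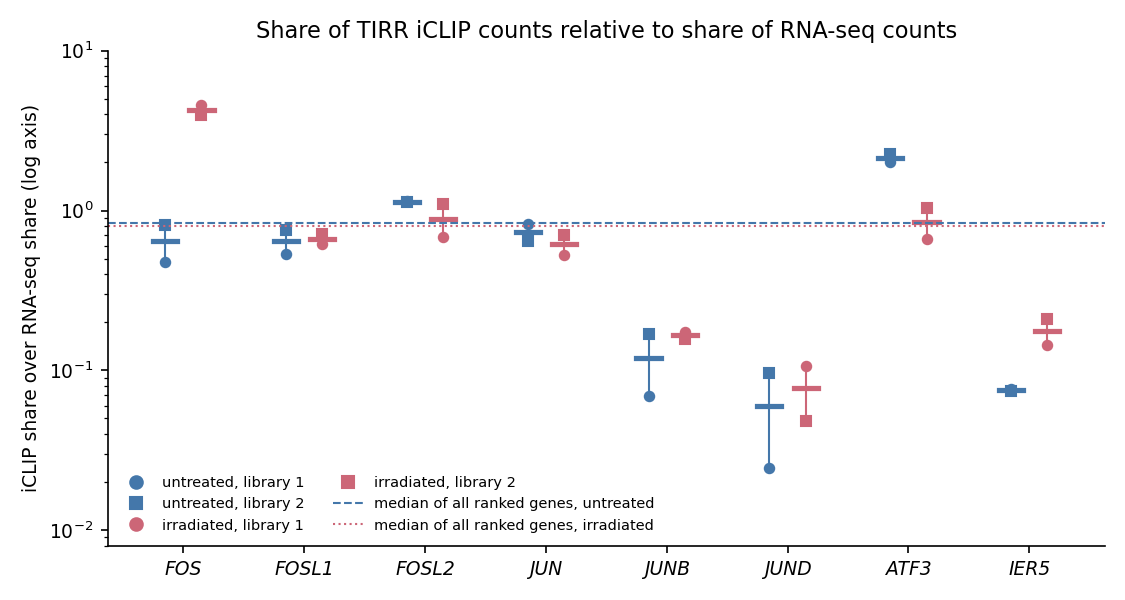
Share of iCLIP gene counts over share of RNA-seq gene counts (log axis) for the 8 listed members; points are the 2 iCLIP libraries of each condition, each divided by the single RNA-seq library of that condition, and bars are their means. FOS lies at 0.645 in untreated and 4.27 in irradiated cells, ATF3 at 2.13 and 0.853, and the dashed and dotted lines mark the medians of all ranked genes, 0.841 and 0.797.

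Levels of different members were compared per kb of deposited gene length. In untreated RNA-seq the order in CPM per kb was JUND (54.2), EGR1 (47.1), JUNB (20.2), JUN (19.3), IER5 (15.97), FOSL2 (12.04), FOS (6.32), FOSL1 (3.90), DUSP1 (3.00) and ATF3 (0.150). The deposited length of JUN, 7204 bases, exceeds its RefSeq span of 3257, on which JUN would have 42.7. Introns lower the value of every member that has them, ATF3, FOSL2 and FOSL1 among them, so the order is not one of mRNA levels. In untreated iCLIP the order was JUN (14.1), FOSL2 (13.7), FOS (4.07), JUND (3.26), FOSL1 (2.52), JUNB (2.41), IER5 (1.204) and ATF3 (0.319). JUN and FOSL2 overlapped between libraries on the deposited lengths (12.5 to 15.8 and 13.5 to 13.9), but on its RefSeq span JUN would have 34.9 and 27.6, above FOSL2. Adjacent genes in the run FOS, JUND, FOSL1 and JUNB overlapped, while the library values of IER5 (1.19 to 1.22) and ATF3 (0.300 to 0.338) lay below them. These ranges leave out counting error. IER5 had 4 and 4 untreated counts against 2 and 5 for JUNB and 2 and 8 for JUND, so their order is not settled.

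EGR1 and DUSP1 are listed in none of the 4 iCLIP tables, and this cannot be read as a count of 0. Of 12645 genes with at least 100 untreated RNA-seq counts, 77.9% are listed in any iCLIP table. Among the 979 genes with at least as many counts as EGR1, 18.6% are not listed, and among the 12016 with at least as many as DUSP1, 21.9%. Both lie on chromosome 5. The coding genes beside EGR1, REEP2 and ETF1, had 14 and 70 summed iCLIP counts, and of those beside DUSP1 NEURL1B had 127 and ERGIC1 is not listed either.

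By position, FOS (chromosome 14, 75278828 to 75282230), EGR1 (chromosome 5, 138465479 to 138469303), ATF3 (chromosome 1, 212565407 to 212620777) and DUSP1 (chromosome 5, 172768096 to 172771195) overlap no other RefSeq gene of GRCh38.p14. FOSL2 (chromosome 2, 28392858 to 28417317) overlaps FOSL2-AS1, a long noncoding RNA gene with 299 and 301 RNA-seq counts and 0 to 3 iCLIP counts per library. JUNB (chromosome 19, 12791486 to 12793315) overlaps HOOK2, which had 1483 and 1345 RNA-seq counts and 20 to 45 iCLIP counts per library. Without a stated strand setting, reads of these overlapping genes cannot be told apart.

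Of 30 other immediate early genes, 23 had at least 100 RNA-seq counts. By the size rule 2 of the 23 were higher and 0 lower, against 0.863% higher and 0.624% lower of all 12977 genes, with a median log2 ratio of 0.05 against -0.00256 over all genes. The 2 were BTG2, an antiproliferative p53 target gene (ratio 3.91, 3.56 to 4.31), and ARC, a gene of the neuronal activity response (2.12, 1.88 to 2.39). CCN1, a matrix signalling gene, had 1459 and 2015 counts (ratio 1.37), MCL1, a survival gene of the BCL2 family, 2346 and 2455 (1.03) and the mRNA decay factor gene ZFP36L1 5607 and 5976 (1.05). In iCLIP 7 of the 30 were tested and 0 called by edgeR or DESeq2. By edgeR 3 of the 7 had an unadjusted p under 0.05, where 14.5% of all tested genes did. The median log2 fold change was 0.49 against 0.00157 over all genes.

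Genes that supply AP-1 with partners or signals passed no size rule in RNA-seq. All 13 partner bZIP genes with 100 counts lay between 0.742 and 1.66, among them ATF4, the main factor of the integrated stress response, at 0.832 (0.796 to 0.870), MAF at 1.02 and MAFK at 0.909. The 25 genes of serum response factor and the MAP kinase cascade lay between 0.779 and 1.28, with NRAS, which encodes a small GTPase upstream of the cascade, at 1.12. The 9 other MAP kinase phosphatase and Sprouty family genes lay between 0.508 and 1.504, with DUSP14 at 1.504, SPRED2 at 0.802 and DUSP16 at 0.945. In iCLIP edgeR and DESeq2 called 0 of 9, 0 of 13 and 0 of 4 tested genes of these lists. By edgeR 6, 2 and 1 of them had an unadjusted p under 0.05, where 14.5% of all tested genes did. Their median log2 fold changes were 0.21, 0.16 and 0.25, against 0.00157 over all genes.

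Of 22 AP-1 target genes, 15 had 100 RNA-seq counts. By the size rule 1 of the 15 was higher and 0 lower, against 0.863% higher and 0.624% lower of all 12977 genes. Their median log2 ratio was 0.30, against -0.00256 over all genes. VIM, the intermediate filament gene of mesenchymal cells, was at 0.925 and TIMP1, a protease inhibitor gene, at 1.01. In iCLIP edgeR called 1 of 8 tested targets, where it called 3.50% of all 9230 tested genes. The called gene was MMP2, the gelatinase gene, which fell from 68 and 63 to 14 and 26 counts. This was -1.08 ± 0.25 on the log2 scale (edgeR estimate ± SE, adjusted p = 0.0217), while its RNA-seq ratio was 0.942 (0.912 to 0.973). That call ended without untreated library 1 (edgeR adjusted p = 0.115) and without irradiated library 2 (0.0540), and DESeq2 gave MMP2 no adjusted p. Of the 15 stress genes around ATF3, 14 had 100 counts. By the size rule 2 of the 14 were higher and 0 lower, against 0.863% higher and 0.624% lower of all genes. The 2 were GADD45A (ratio 3.18) and SESN2 (2.54), both known p53 targets. HSPA8 was at 1.02 and HSF1 at 0.826. In iCLIP 0 of 4 tested were called by edgeR or DESeq2. By edgeR 1 of the 4 had an unadjusted p under 0.05, where 14.5% of all tested genes did.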

How the data were processed

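The deposited tables hold whole-number cDNA counts per gene, each gene's percent of all cDNA and its length, per the file headers, with 1 line of intergenic counts (30.6% to 31.3% in iCLIP, 44.4% in RNA-seq) that was left out. The build is hg38 and kallisto 0.44.0 is named for RNA-seq, per the submitters' processing notes. For aligner, duplicate removal and strand setting nothing is stated. The deposited percent column equalled the count over the library's total in every line, within a relative tolerance of 1e-06. Since separate cultures are not stated for the replicates, p-values measure only how far these libraries differ, perhaps technically.

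iCLIP was tested with edgeR 4.0.16 in R 4.3.3 (quasi-likelihood F test, TMM, default filterByExpr, Benjamini-Hochberg at 0.05, two-sided, all genes), checked on simulated counts. There log2 changes of 1 and 2 were recovered in 79.6% and 100% of genes, and of -1 and -2 in 38.3% and 76.6%. The simulated spread between libraries was set and not taken from these data. RNA-seq ratios are TMM-scaled with exact conditional 95% intervals, and medians of their log2 values used a prior count of 0.5. Alternatives were DESeq2 1.42.0, library totals, filters, a replicate block, thinning and each library left out. Gene symbols matched 99.9% (iCLIP) and 99.7% (RNA-seq) of identifiers. Python 3.11.15, numpy 2.4.6, pandas 2.3.3, scipy 1.17.1 and matplotlib 3.10.9 were used.

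The members and the 6 gene lists were chosen with earlier results of these data known. Named are all members, CDKN1A and MDM2, listed genes past a threshold or with the most RNA-seq counts, overlapping genes, and the 3 genes with the nearest RNA-seq ratio to FOS, EGR1 and ATF3. Some listed genes that this rule names are not reported here. Protein sequences were not used here.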

Additional observations from a re-analysis of the deposited data

Results flagged for a closer look

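FOS was singled out because its 2 irradiated iCLIP libraries lay above both untreated ones, while its RNA-seq level was lower after the dose. The ratio of its mean iCLIP CPM, irradiated over untreated, was 1.51, and its RNA-seq ratio was 0.226. The log2 values differ by 2.74. The difference was not tested, and the iCLIP change itself did not pass (edgeR adjusted p = 0.593). With 1 iCLIP library left out this ratio of mean iCLIP CPM lay between 1.20 and 2.05 for FOS. Nothing else among the 8 listed members met this condition.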

How the results depend on the processing

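No setting called a member in iCLIP (3 to 8 members tested), and DESeq2 gave FOS, FOSL1 and ATF3 no adjusted p. Against 323 genes called in all, DESeq2 called 122, thinning to equal depth 212 and the replicate block 190, and leaving out 1 library gave 186 (without untreated library 1) to 421. The differences between replicates 1 and 2 showed no correlation between the conditions that would mark pairs (-0.09 over genes). Counting error at this depth could hide such pairs, so pairing is not excluded. The block changed no member's call. The log2 fold changes of FOSL2 and JUN, both near 0, changed sign when thinned (0.030 and 0.13), FOSL2 also without irradiated library 1 (0.20), and JUN without untreated library 1 (0.12) or irradiated library 1 (0.11). With 1 library left out they ranged from -0.46 to 0.20 for FOSL2 and from -0.27 to 0.12 for JUN. The edgeR call of MMP2 also ended under the replicate block (adjusted p = 0.0621). In RNA-seq a minimum of 500 counts left 98 of 193 genes and 1 of 4 members, EGR1, since FOS, ATF3 and DUSP1 lie under it. With 1 library left out, the ratios of mean iCLIP CPM, irradiated over untreated, lay on both sides of 1 for JUN (0.783 to 1.03), JUNB (0.760 to 1.86), JUND (0.719 to 2.83) and FOSL2 (0.689 to 1.10). With 2 to 26 iCLIP counts per library for 6 of 8 listed members, depth limits what can be seen.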

Other observations

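Among the partner bZIP genes 6 of 9 tested in iCLIP had an unadjusted p under 0.05, against 14.5% of all tested genes, with 3 in each direction. They are named here after their values were seen, and edgeR called none of them. NFE2L2, which encodes the oxidative stress factor NRF2, had 106 and 113 counts before and 34 and 53 after the dose, or -0.69 ± 0.19 on the log2 scale (edgeR estimate ± SE, adjusted p = 0.0595). JDP2 had -0.53 and ATF2 -0.48. On the other side ATF4 had 0.67, the small MAF gene MAFG 0.59 and MAFF 0.54 (edgeR adjusted p from 0.179 to 0.289 for these 5).

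The receptor gene EGFR had 62 and 58 iCLIP counts before and 43 and 87 after the dose, or 0.74 ± 0.20 on the log2 scale (edgeR estimate ± SE, adjusted p = 0.0517), and the cell surface gene CD44 had 0.87 ± 0.25 (edgeR adjusted p = 0.0595). The nuclear receptor gene NR4A1 had 0.50, KLF10 0.58 and CSRNP1 0.49, all immediate early genes, with edgeR adjusted p from 0.229 to 0.272. These genes were also chosen after their values were seen.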
